A study of Mus musculus with 4 samples.

Results

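Rab proteins are small GTPases that mark membranes inside the cell and direct vesicles between them. A Rab is inactive with GDP bound, is switched on by a guanine nucleotide exchange factor (GEF), binds effectors such as tethers and motors while it carries GTP, and is switched off by a GTPase-activating protein (GAP), usually one with a TBC domain. Lipid tails added by the prenylation machinery hold it in the membrane, and GDP dissociation inhibitors (GDIs) take the inactive form back out. In muscle, Rabs are best known for moving the glucose transporter GLUT4 to the surface, and in every cell they keep receptors, adhesion molecules and lysosomes in circulation.

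The Rab genes were picked by name (Rab, a number and at most 1 letter), which gave 59 of the 55487 genes in the deposited tables. The family was selected on an earlier look at these same libraries, in which Rab43 had been noted as higher and Rab6b as lower in the knockout. The differences between genotypes given here for Rab genes are therefore a description. Where a Rab gene is said to be called or past the threshold (an adjusted p under 0.05 in a fit over all genes), this says only where that fit placed it and supports nothing. All 59 were found in the gene annotation (GENCODE M21, build GRCm38), all passed the filter on low counts, and all had a TPM above 0 in every library.

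The 4 RNA libraries came from satellite cells, the stem cells of skeletal muscle, freshly taken from mice, with 2 libraries from Control mice and 2 from mice with a conditional knockout (cKO) of Rbfox2. Rbfox2 encodes an RNA-binding protein that regulates splicing. The cKO mice carried floxed Rbfox2 alleles and Pax7CreERT2, a tamoxifen-inducible Cre made only in cells that express Pax7, with a Rosa26 EYFP reporter that marks cells in which Cre has acted. Tamoxifen was injected to delete Rbfox2. The labels give neither the alleles or injections of the Control mice, nor the age of any mouse, nor whether the 2 libraries of a group came from separate mice. The spread between the 2 libraries of a group, on which every SD, SE and p-value here rests, may thus be technical.

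Library totals ran from 68884091 to 101997422 estimated counts. Rbfox2 itself had 131 and 56.0 normalised counts (CPM, the count scaled to a common library size by the TMM method) in Control 1 and Control 2, and 40.0 and 15.2 in cKO 1 and cKO 2. The log2 fold change was -1.76 ± 0.35 (SE, n = 2 libraries a group). All 10 satellite cell markers were present, Myf5, Myod1 and Vcam1 among them, and summed to between 17000 and 17900 TPM, of which Sdc4 alone gave 11000 to 12100. Pax7 was low, with 7.9 and 7.0 TPM in Control and 15.9 and 13.5 in cKO. The library cKO 1 stood apart, with a median TPM over all genes of 0.771 against 0.312 to 0.437 in the others. Of the 11 lists for other cell types, 5 had both cKO libraries above both Control libraries: erythroid (337 and 763 TPM in Control, 1800 and 1470 in cKO), macrophage, Schwann cell (27.9 and 28.0 against 39.0 and 35.1), endothelial (116 and 126 against 156 and 129) and platelet (11.5 and 10.6 against 18.0 and 11.9). The fibro-adipogenic list overlapped between groups, at 715 and 802 TPM in Control and 830 and 701 in cKO. The library cKO 1 held the highest TPM for 62.3% of all genes of 1 to under 10 TPM, so nothing is read from the count of lists. The part of these cell types in the Rab results was not tested. In bulk RNA, fewer cells of a type and less RNA per cell cannot be told apart.

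The sequences that matter most for reading the Rab43 result are the splice junctions of Rab43 and of Gm45140, an overlapping gene model on the same strand. Rab43 lies on the minus strand of chr6:87788853-87812164 (GRCm38), and Gm45140 on the minus strand of chr6:87788861-87835795. Gm45140 begins among the exons of the upstream gene Isy1 and ends with the last 2 exons of Rab43. Below, 15 bases on each side of a junction were read from the genome on the transcribed strand, and the capitals mark the end of the upstream exon.
Rab43-203, exon 1 to exon 2: GGCAAGCGGGTCAAGttacagatttgggac
Rab43-201, exon 1 to exon 2: AGGCCATTGTTACTGttacagatttgggac
Gm45140-201, exon 2 to exon 3: CCATCTCAGCAGGAGttacagatttgggac
Gm45140-202, exon 8 to exon 9: GAGGTACGGGCATGGcaaccactctgaacc
Both genes, into the last exon: TGCAGCTGCTGATTGggaacaagtcagacc
The first 3 junctions share their lower-case side, which starts at position 87794797, and differ only in the capitals. The last junction is the same in both genes, and 4164 exonic bases of Rab43 lie within exons of Gm45140. Of all 50-base words in the Rab43 transcripts, 74.5% also occur in Gm45140. Reads that lie wholly within the shared bases cannot tell the 2 genes apart.

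Rbfox proteins bind the hexamer TGCATG in RNA. It was searched on the sense strand only, in the 3′ UTR of the longest complete coding transcript of each gene, and a match describes the letters and not a bound site. The 3 windows below are from Rab43 and Rab6b, called in counts, and Rab11b, called only on the scales that correct for transcript length. Other Rab genes had matches too. The capitals mark the hexamer.
Rab43, chr6:87791142-87791171, minus strand: ctgggttagagcTGCATGgctctaagggct
Rab6b, chr9:103183247-103183276, plus strand: tgtgcacaggtgTGCATGccgtcgtgggcc
Rab11b, chr17:33744036-33744065, minus strand: ctgtataccacaTGCATGcagtttccacag
The Rab43 match starts 1431 bases after the stop codon and the Rab6b match 2013 bases after it, and the Rab11b match is the fourth of 5 in that UTR. Rab24, Rab6a and Rab20 had none. The hexamer was present in the first 500 bases of the 3′ UTR for 7 of 46 Rab genes with a UTR that long (15.2%), against 14.9% of 12929 coding genes. Over whole 3′ UTRs it occurred in 26 of 59 Rab genes (44.1%) and in 29.6% of 21526 coding genes, and per kb the frequencies were 0.403 and 0.359.

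Rab RNA was dominated by a few genes, spread over the Golgi, lysosomal, early endosome and recycling routes. Levels between genes were compared in TPM, which scales a count by transcript length and by the library's total. The family summed to 1950 and 1809 TPM in the Control libraries and to 2125 and 1933 in the cKO libraries, which is 0.181% to 0.212% of all transcripts. The group means of this sum were 1880 ± 99.8 and 2029 ± 136 (SD, n = 2). Rab7 and Rab1a ranked first and second in every library and together held 38.4% of the summed Rab TPM, while the top 10 genes held 75.1%. By mean TPM over the 4 libraries, 5 genes reached 100, 20 lay from 10 to under 100, 22 from 1 to under 10, and 12 stayed below 1.

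**Figure D1:**
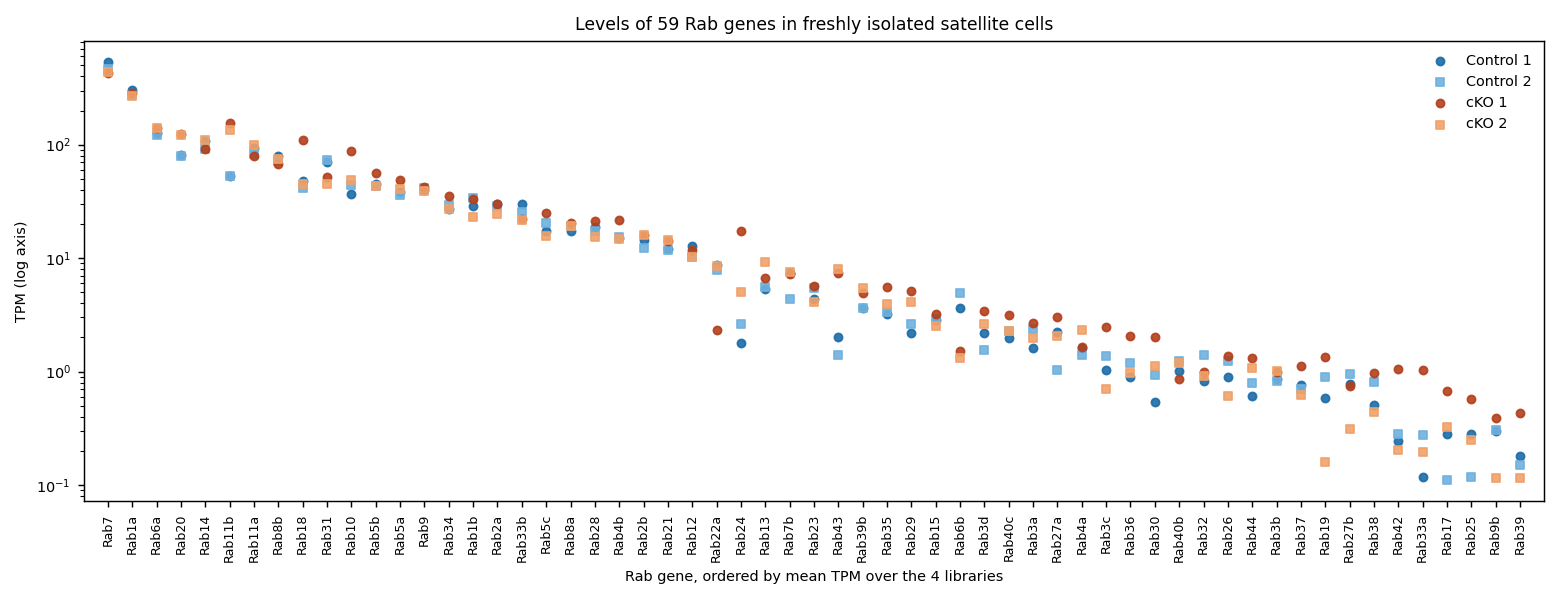
TPM (log axis) of each of the 59 Rab genes in each library, ordered by mean TPM; circles are replicate 1 and squares replicate 2, blue for Control and red-orange for cKO. Levels run from 467 for Rab7 to 0.22 for Rab39, and Rab11b, Rab24, Rab43 and Rab6b show the 2 colours apart.

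Of the family, 16 genes serve traffic from the endoplasmic reticulum (ER) to the Golgi and within it, and they held 31.7% of the Rab TPM. Rab1a, which admits vesicles from the ER to the Golgi, stood at 301 and 272 TPM in Control and 285 and 271 in cKO. Its paralog Rab1b was far lower, at 29.0 and 33.6 in Control and 33.2 and 23.1 in cKO. Rab6a, which acts in transport within the Golgi and back to the ER, had 128 and 122 TPM in Control and 141 in each cKO library. For Rab1a and Rab1b the groups overlapped in TPM, and for Rab6a the 2 cKO libraries lay above both Control libraries in TPM but not in CPM.
Of the other Golgi Rabs, Rab2a and Rab2b, which bind Golgi tethers, had means of 28.2 and 14.7 TPM, and Rab34 had 29.9. Rab33b, known for recruiting the autophagy protein Atg16l1, had 29.9, 25.6, 22.3 and 21.6 TPM in Control 1, Control 2, cKO 1 and cKO 2. Rab39b had a mean of 4.41, Rab36 of 1.28, Rab30 of 1.15 and Rab19 of 0.746, and Rab33a and Rab39 were the lowest of the class at 0.405 and 0.22.

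The late endosome and lysosome class held 27.3%, nearly all of it Rab7, the Rab that brings late endosomes to fusion with lysosomes. Rab7 had 539 and 467 TPM in Control and 430 and 434 in cKO, so that both cKO libraries were below both Control libraries. Rab9, which returns mannose 6-phosphate receptors from late endosomes to the Golgi, ran from 38.8 to 42.6 TPM with the groups mixed. Rab12 had a mean of 11.3, Rab7b of 6.66 and Rab9b of 0.278.

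Early endosome Rabs held 15.8%. The 3 Rab5 genes, whose products drive fusion of early endosomes, had means of 47.1 (Rab5b), 41.1 (Rab5a) and 19.6 TPM (Rab5c). Rab20, an endosomal and phagosomal Rab, was the highest of the class at a mean of 102 TPM, and Rab31, which works between the Golgi and endosomes, had 60.3. Rab4b (16.7) and Rab21 (13.1), which recycle receptors and integrins, also exceeded 10 TPM, whereas Rab22a had 6.89, Rab4a 1.75 and the epithelial Rab17 0.346.
Recycling endosome Rabs held 14.9%, with Rab14 at 100, Rab11b at 98.6, Rab11a at 88.8, Rab35 at 4.02 and the epithelial Rab25 at 0.305. The lowest estimated count of any Rab gene was 5, for Rab25 in 1 library.

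Exocytosis and secretion Rabs, 13 genes, held 8.59%. Of the Rab8 subfamily among them, Rab8b had a mean of 73.5 TPM, Rab10 of 54.3, Rab8a of 19.1 and Rab13 of 6.69. Rabs of specialised secretory cells were low. Rab3a to Rab3d, which act in regulated secretion and at synapses, had 2.16, 0.92, 1.39 and 2.45 TPM, Rab27a and Rab27b, of secretory lysosomes, had 2.08 and 0.701, and Rab26 and Rab37 had 1.03 and 0.804. Rab15 stood at 2.87.
Rab18, of the ER and lipid droplets, belongs to the Golgi class here and had a mean of 61.1 TPM. The melanosome Rabs Rab32 and Rab38 had 1.03 and 0.681 and their relative Rab29 had 3.52. The cilium Rabs Rab28 and Rab23 had 18.2 and 4.91, the ubiquitin ligase adaptors Rab40c and Rab40b had 2.43 and 1.08, and Rab44 and Rab42 had 0.95 and 0.446.

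Most abundant Rabs differed little between genotypes. For the difference, estimated counts were compared with edgeR's quasi-likelihood model over all 38143 genes tested, and a fold change above 0 on the log2 scale means higher in cKO. The 25 genes of at least 10 TPM had log2 fold changes from -0.73 to 0.60 with a median of -0.09, and 22 of them (88.0%) lay within 0.5 of 0, against 84.7% of the 7129 genes at that level, whose median was -0.12. Over all 59, 31 values were positive and 28 negative, with a median of 0.02 against 0.06 over all genes tested.
Scaling to library totals in place of TMM moved the median of all genes to 0.25 and that of the Rab genes to 0.19, so the sign of a small difference depends on the scaling. The median Rab value was 0.14 without cKO 1 and -0.10 without cKO 2. Beside these differences, the 2 Control libraries differed from each other by a median of 0.17 (log2 of CPM) over the genes of at least 10 TPM, and the 2 cKO libraries by 0.43.

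**Figure D2:**
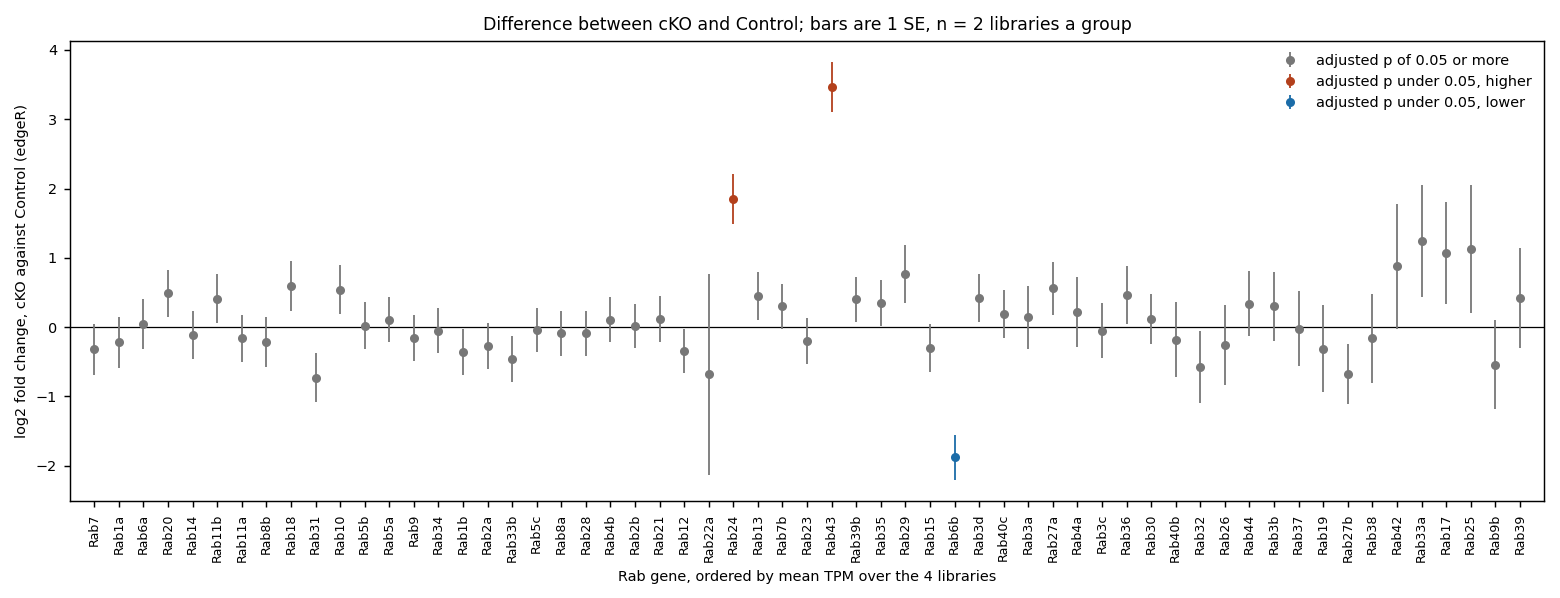
Log2 fold change of cKO against Control for each Rab gene from edgeR, with 1 SE (n = 2 libraries a group), in the order of mean TPM; colours mark an adjusted p under 0.05 in the fit over all genes. Rab43 at 3.47 and Rab24 at 1.85 stand above the rest and Rab6b at -1.88 below, while the most abundant genes lie near 0.

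At an adjusted p under 0.05 over all genes, the fit called Rab43 and Rab24 higher and Rab6b lower in cKO. The background was 0.364% of all genes tested called higher and 0.186% called lower. Since the family was chosen with this contrast known, nothing is read from that count. In TPM, limma on log2(TPM + 1) called Rab43 and Rab11b among 47 Rab genes (background 0.209% higher), and none lower (0.0988%), where Rab6b differed by -1.11. With an offset for transcript length in edgeR, the calls were Rab24, Rab43 and Rab11b (0.306% higher) and Rab6b (0.121% lower). In CPM, 16 Rab genes had both cKO libraries above both Control libraries (18.0% of all genes) and 9 had both below (13.3%).
The library cKO 1 held the highest TPM for 10 of the 12 Rab genes under 1 TPM, for 13 of the 22 from 1 to under 10 and for 13 of the 25 from 10 up. The same held for 67.5%, 62.3% and 35.8% of all genes in these ranges.

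Rab43, a Golgi Rab known from transport between the ER and the Golgi, had the largest fold change of the family in counts. On the scales that correct for transcript length Rab24 was level with it or above, with a TPM ratio of 5.07. The level of Rab43 was 2.00 and 1.41 TPM in Control and 7.35 and 7.99 in cKO, with means of 1.70 ± 0.415 and 7.67 ± 0.455 (SD, n = 2). Both cKO libraries were far above both Control libraries, by 4.50 times between the means. In CPM the values were 1.55 and 1.09 against 11.3 and 18.0 and gave a log2 fold change of 3.47 ± 0.36 (SE), and 2.04 with the transcript length offset.
Gm45140, the gene model that shares its last exons, went the opposite way, with 10.2 and 9.91 CPM in Control and 0.31 and 1.82 in cKO. Its log2 fold change was -3.24 ± 0.38 (edgeR, adjusted p = 8.44e-13, lower in 2 of 2 cKO libraries). It was lower under all 12 alternative settings (-5.08 to -1.58) but called in 6 of them, and lost, for example, with scaling to library totals and with the transcript length offset. The 2 genes added together had 11.7 and 11.0 CPM in Control and 11.6 and 19.8 in cKO, a log2 ratio of the means of 0.47, and the groups overlapped. Summed in TPM they had 5.86 and 5.65 in Control and 7.52 and 9.42 in cKO (log2 ratio 0.56). Isy1, whose exons open Gm45140, had 53.4 and 49.5 CPM in Control and 37.6 and 49.6 in cKO, a log2 fold change of -0.24 ± 0.33 (edgeR adjusted p = 1.0). How the reads of the shared exons were divided between Rab43 and Gm45140 is not given in the sources used here, so the separate values of the 2 genes are uncertain. Their summed count does not depend on that division. It does depend on how reads were divided between Gm45140 and Isy1, whose exons overlap upstream of Rab43, and this is not given either.

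**Figure D3:**
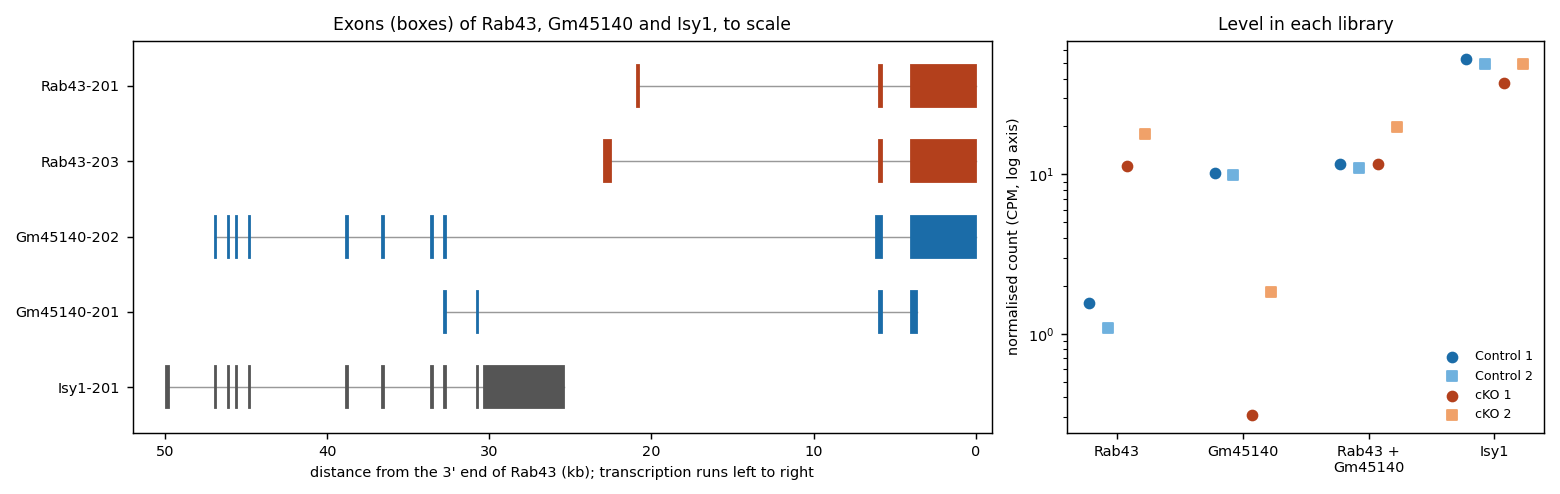
Left, exons of 2 Rab43, 2 Gm45140 and 1 Isy1 transcript, to scale in kb from the 3′ end of Rab43; right, CPM (log axis) of Rab43, Gm45140, their sum and Isy1 in each library. Rab43 and Gm45140 go in opposite directions between genotypes, while their sum runs from 11.0 to 11.7 in Control and from 11.6 to 19.8 in cKO.

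The transcripts to which Rab43 reads were assigned also differed in length between genotypes. Count divided by TPM, scaled per library, gives the mean length of the transcripts a gene's reads were assigned to. Where the annotation lists only 1 transcript and the count exceeded 200, this matched the annotated length within 1% in all 4 libraries. For Rab43 it was 1301 and 1315 nt in Control and 3501 and 3505 nt in cKO. The coding transcript Rab43-202 is 1262 nt long and Rab43-201 and Rab43-203 are 4308 and 4605 nt. The longer forms contain the whole last exon, most of which Gm45140-202 (5061 nt, annotated as a target of nonsense-mediated decay) shares.

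**Figure D4:**
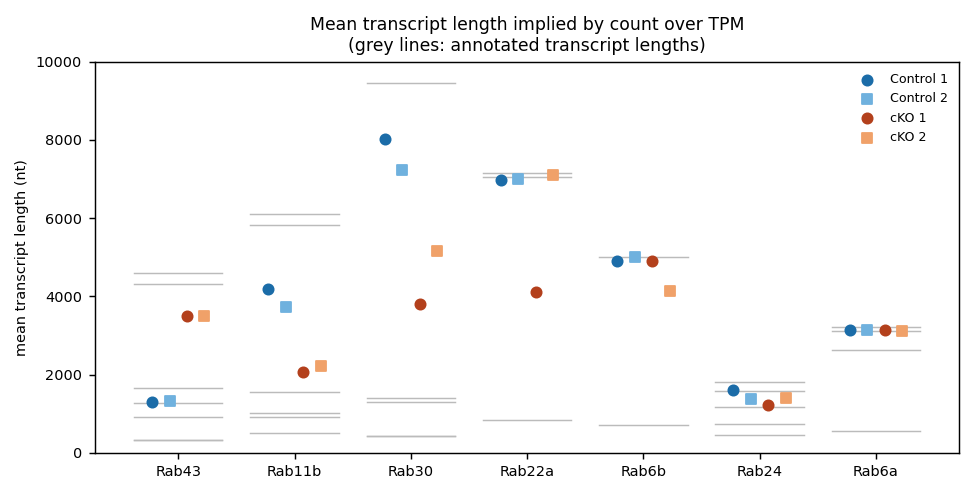
Mean transcript length in nt implied by count over TPM for 7 Rab genes in each library, with annotated transcript lengths as grey lines. Rab43 is longer and Rab11b and Rab30 shorter in both cKO libraries, Rab22a is shorter only in cKO 1, and Rab6a changes little.

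Rab11b, one of the paired recycling endosome Rabs, differed in TPM far more than in counts. It had 52.6 and 53.2 TPM in Control and 155 and 134 in cKO, means of 52.9 ± 0.421 and 144 ± 15.0 (SD, n = 2) and a ratio of 2.73. Its rank within the family went from ninth in both Control libraries to 3 and 4 in the cKO libraries. In CPM the same gene had 131 and 116 in Control and 140 and 189 in cKO, without overlap. Its log2 fold change was 0.41 ± 0.35 (SE), which is near its error. It was 0.62 without cKO 1 and 0.11 without cKO 2. Of its 50-base words, 8.87% also occur in Rab11b-ps2. The implied length was 4193 and 3725 nt in Control and 2057 and 2209 nt in cKO, and annotated Rab11b transcripts run from 503 to 6109 nt. TPM divides a count by that length, so the 2 scales part for Rab11b. How reads were assigned to its transcripts was not tested.
Rab30, a Golgi Rab of the Rab43 subfamily, was assigned shorter transcripts too, 8023 and 7228 nt in Control against 3810 and 5157 nt in cKO. It had 0.54, 0.931, 2.01 and 1.12 TPM across the libraries, with cKO above Control, but 2.58, 3.95, 3.38 and 3.72 CPM with overlap and a log2 fold change of 0.12 ± 0.36. Of the 59 genes, 40 had implied lengths within 0.1 (log2) between groups and 3 (5.08%) were over 0.5, against 2.62% of 38133 genes.

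Rab6b, the Rab6 paralog best known from brain, was low and lower still in cKO. It had 3.64 and 4.91 TPM in Control and 1.53 and 1.32 in cKO, with means of 4.27 ± 0.896 and 1.42 ± 0.146 (SD, n = 2). The groups did not overlap, and the gap between them exceeded the spread within either. In CPM it had 10.6 and 14.4 in Control and 3.31 and 3.52 in cKO, and the log2 fold change was -1.88 ± 0.33 (SE). The call was lost without Control 1 (-2.09) and without Control 2 (-1.66), with the value on the same side.
Rab6b lies on the plus strand of chr9:103111787-103185276. Its transcripts share no 50-base word with those of any other annotated gene, so no shared stretch of that length makes its reads ambiguous. Its coding sequence is 78.4% identical to that of Rab6a over 624 nt each, with a longest identical stretch of 14 nt. The 6 neuron markers summed to 4.80 and 5.09 TPM in Control and 8.96 and 4.66 in cKO, with Syt1 and Nefl under 1 in every library. Rab6a had 239 and 224 CPM in Control and 195 and 282 in cKO, a log2 fold change of 0.04 ± 0.36, and thus no difference outside the spread.
Rab6a shares 17.7% of its 50-base words with Mrpl48 on the opposite strand. Mrpl48 had 22.9 and 33.1 CPM in Control and 76.7 and 62.7 in cKO (log2 fold change 1.31 ± 0.34, edgeR adjusted p = 0.025), a call kept in 3 of 12 alternative settings and lost without Control 1 or Control 2. The cDNA protocol does not mark strand, so reads in the 708 shared exonic bases cannot be told apart.

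Rab24, an atypical Rab linked to autophagy, was higher in cKO but mainly in 1 library. It had 1.79 and 2.63 TPM in Control, 17.4 in cKO 1 and 4.99 in cKO 2, so the cKO libraries differed from each other more than cKO 2 did from Control. The CPM were 1.71, 2.13, 9.46 and 4.46, and the log2 fold change was 1.85 ± 0.36 (SE). Without cKO 1 it was 1.22 and no longer called, and it was not called without Control 1 (1.68) or Control 2 (1.99) either. Rab24, on the minus strand of chr13:55319743-55321946, shares 49.6% of its 50-base words with Prelid1 on the plus strand (1258 exonic bases). Prelid1 was the more abundant, with 50 and 49.9 CPM in Control and 39.6 and 45.6 in cKO and a log2 fold change of -0.23. Rab24 and Prelid1 added together had 51.7 and 52 CPM in Control and 49.0 and 50.1 in cKO (log2 ratio -0.07). In the family as a whole, 20 genes share exonic bases with another gene, 6 on the same and 15 on the opposite strand, Rab26 counting under both. Rab4b (56.0% of its 50-base words with Gm21983) and Rab2b (54.5% with Gm43766) share the most after Rab43, so their levels are uncertain too.

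Among the endosomal Rabs, Rab20 was higher and Rab31 lower in cKO without being called. Rab20 had 81.7 and 79.0 TPM in Control and 125 and 122 in cKO, means of 80.4 ± 1.93 and 124 ± 2.24 (SD, n = 2), so the groups were far apart for their spread in TPM. In CPM the cKO libraries were wider apart, 67.8 and 64.6 against 76.9 and 109, with a log2 fold change of 0.49 ± 0.34. Without cKO 1 the value was 0.73, and without cKO 2 it was 0.15. Rab20 shares 22.9% of its 50-base words with E230013L22Rik on the opposite strand, which had 0.794, 1.10, 2.63 and 2.98 CPM. Macrophage markers summed to 18.5 and 17.5 TPM in Control and 22.5 and 25.6 in cKO, with Adgre1 and Mrc1 under 1 in every library. Most of that was Cd68, at 15.9 and 13.9 in Control and 16.4 and 23.4 in cKO. The part of macrophages in Rab20 was not tested.
Rab31 had 70.9 and 73.3 TPM in Control and 51.9 and 45.1 in cKO, and 143 and 147 against 77.3 and 97.5 CPM. Its log2 fold change of -0.73 ± 0.35 was the lowest of the abundant Rabs, and it was -0.98 without cKO 2 and -0.56 without cKO 1. Rab22a, its closest relative, had 8.78 and 7.91 TPM in Control and 8.55 in cKO 2, but 2.31 in cKO 1.

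Rab18 and Rab10 were highest in cKO 1. Rab18 had 47.6 and 41.6 TPM in Control, 110 in cKO 1 and 45.1 in cKO 2, and its log2 fold change of 0.60 ± 0.36 became 0.14 without cKO 1. Without cKO 2 it was 0.88. Rab10, which takes GLUT4 vesicles to the surface, had 37.0 and 43.9 TPM in Control, 87.2 in cKO 1 and 48.9 in cKO 2, a log2 fold change of 0.54 ± 0.35. In TPM cKO 2 lay closer to Control than to cKO 1 in both genes. In CPM Rab10 had 77.6 and 90.7 in Control, 135 in cKO 1 and 110 in cKO 2, and its log2 fold change without cKO 1 was 0.40.
The remaining abundant Rabs lay within 1 SE of 0 in counts or close to it. Rab7 had 636 and 555 CPM in Control and 376 and 577 in cKO, overlapping, with a log2 fold change of -0.32 ± 0.37. Without cKO 2 it was -0.73, and without cKO 1 it was -0.03. Rab1a (-0.22 ± 0.37), Rab14 (-0.11 ± 0.35), Rab11a (-0.16 ± 0.34) and Rab8b (-0.21 ± 0.36) overlapped between groups in CPM and in TPM alike. Rab14 and Rab8b had -0.70 and -0.67 without cKO 2, but 0.28 and 0.12 without cKO 1. Over the Rab genes of at least 10 TPM the median moved the same way, to -0.35 without cKO 2 and 0.11 without cKO 1.
For Rab33b the log2 fold change was -0.46 ± 0.33, with -0.84 without cKO 2 and -0.2 without cKO 1. For Rab1b it was -0.36 ± 0.33. Among low genes, Rab29 had 2.19 and 2.64 TPM in Control and 5.18 and 4.07 in cKO (0.77 ± 0.42), Rab27a 2.23 and 1.03 against 3.03 and 2.05 (0.56 ± 0.38), and Rab32 0.833 and 1.39 against 0.988 and 0.909 (-0.57 ± 0.52). Rab19, at 0.587, 0.89, 1.35 and 0.158 TPM, differed more between the cKO libraries than between the groups (-0.31 ± 0.63).

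Within subfamilies, the balance between abundant paralogs differed most between groups for Rab11. In TPM, Rab11a held 63.8% and 60.9% of the Rab11 and Rab25 sum in Control and 33.8% and 42.7% in cKO. On this scale Rab11b became the larger in both cKO libraries. The scale rests on the transcripts assigned to Rab11b, and that assignment was not tested. CPM does not correct for length and cannot set that balance. In CPM Rab11b was above Rab11a in every library, with 131 and 116 in Control and 140 and 189 in cKO. Rab11a had 113 and 99.0 CPM in Control and 72.6 and 117 in cKO, with overlap. Rab6b supplied 2.77% and 3.87% of Rab6 TPM in Control and 1.07% and 0.927% in cKO. Rab43 supplied 63.9% and 43.7% of its subfamily with Rab19 and Rab30 in Control and 68.6% and 86.2% in cKO.
By contrast, Rab1a held 89.0% to 92.2% of Rab1 in every library, Rab5b 43.4% to 44.5% of Rab5 and Rab7 98.3% to 99.1% of its pair with Rab7b. In the Rab8 subfamily, with Rab10 and Rab13, Rab10 held 26.6%, 31.2%, 48.0% and 32.1%, with cKO 1 the exception. Rab8b held 57.1% and 51.2% of it in Control and 37.0% and 49.3% in cKO. Rab2a held 67.3% and 70.0% of Rab2 in Control and 64.9% and 60.6% in cKO. These shares had no test, and coding identities of 76.1% for Rab1a with Rab1b and 75.1% for Rab11a with Rab11b leave longest identical stretches of 38 and 14 nt.

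**Figure D5:**
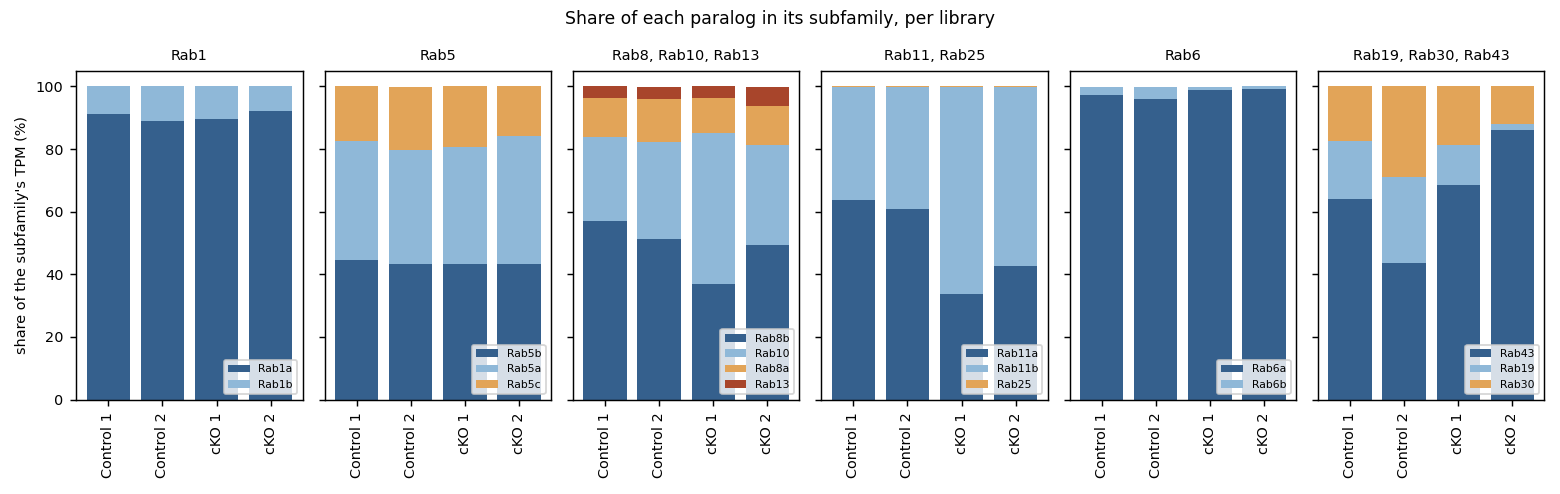
Share (%) of each paralog in the summed TPM of 6 Rab subfamilies, 1 stacked bar per library, bars starting at 0. Rab11a holds 63.8% and 60.9% in Control and 33.8% and 42.7% in cKO, while Rab1a stays between 89.0% and 92.2%.

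By trafficking step, the absolute difference in summed TPM, not the ratio, was largest for recycling endosome Rabs, where Rab11b made up the gap. The sums were 257 and 230 in Control and 332 and 348 in cKO. That gap comes with the shorter transcripts assigned to Rab11b in cKO, an assignment that was not tested. In counts Rab11b had a log2 fold change of 0.41 ± 0.35 (SE). The late endosome and lysosome class had 601 and 526 in Control and 509 and 496 in cKO, following Rab7. The Golgi class (619, 579, 694 and 587), the early endosome class (291, 288, 349 and 308) and the exocytosis class (152, 154, 201 and 165) were highest in cKO 1. Median log2 fold changes were 0.35 for recycling, -0.24 for late endosome and lysosome, 0.11 for early endosome, 0.03 for Golgi and -0.02 for exocytosis. The recycling class has 5 genes, 3 with positive and 2 with negative values. Without cKO 1 the lysosomal median was 0.01 and the exocytosis median 0.12. Without cKO 2 the recycling median was 0.11, the early endosome median -0.12 and the Golgi median -0.16.

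Among the genes that switch, carry or resemble Rabs, in 5 lists, 1 was called, beside a background of 0.364% of all genes called higher and 0.186% lower. So few calls are near that background and are no result about the lists. Of all genes tested, 4.83% had an unadjusted p under 0.05, which is the background for the counts given per list. Of 14 prenylation and GDI genes none was called in either direction, with 3 positive and 11 negative values, a median of -0.16 and 0 at an unadjusted p under 0.05. Without cKO 1 the median was 0.11, and without cKO 2 it was -0.55. Gdi2, which extracts Rabs from membranes, had 195 and 172 CPM in Control and 138 and 202 in cKO (log2 fold change -0.11), and Rabac1, a prenylated Rab acceptor, had 0.19. Of 50 GEF genes none was called (28 positive, 22 negative, median 0.03, 2 at an unadjusted p under 0.05), and the median was 0.21 without cKO 1 and -0.29 without cKO 2. Gapvd1, an exchange factor for Rab5, had -0.24 and Rab3gap1, part of the exchange factor for Rab18, had -0.08.
Of 38 TBC-domain GAP genes tested among 40, none was called (17 positive, 21 negative, median -0.04, 3 at an unadjusted p under 0.05), and the median was 0.07 without cKO 1 and -0.16 without cKO 2. Tbc1d15, a GAP for Rab7, had 430 and 404 CPM in Control and 226 and 386 in cKO (-0.45), and Tbc1d10a had 0.22. Of 64 effector genes none was called (39 positive, 25 negative, median 0.08, 3 at an unadjusted p under 0.05), and the median was 0.11 without cKO 1 and -0.16 without cKO 2. Gorasp2, a Golgi stacking protein, had 313 and 310 CPM in Control and 178 and 273 in cKO (-0.47), and Sytl2, a synaptotagmin-like effector of Rab27, had 0.21. DESeq2 and limma called none of these genes either.
Of 9 Rab-like genes, 1 was called. Rabl2, linked to cilia and sperm tail assembly, fell from 5.12 and 4.68 CPM in Control to 1.68 and 2.04 in cKO, a log2 fold change of -1.40 ± 0.37 (edgeR adjusted p = 0.0346), lower in 2 of 2 cKO libraries. The call held in 2 of 11 alternative settings, those without cKO 1 or without cKO 2, and was lost without Control 1, without Control 2, with a replicate block and in the other 6, with values from -1.61 to -0.97. The remaining Rab-like genes had 5 positive and 3 negative values.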

How the data were processed

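RNA was extracted from freshly isolated satellite cells, 10 ng went into each library, and cDNA followed the SMART-Seq protocol, per the labels' protocols. Per the submitters' processing notes, HISAT2 2.1.0, StringTie 1.3.6 and build GRCm38 were used, with no role given. The authors deposited an estimated count per gene, already whole, and a TPM per gene, in 2 tables matched on gene ID. Neither the annotation release nor the strand setting is given in the sources used here.

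Counts were fitted with edgeR 4.0.16 in R 4.3.3 (TMM, filterByExpr, robust quasi-likelihood, genotype only) on all 4 libraries, with 38143 genes tested and Benjamini-Hochberg adjustment over all of them at 0.05. Alternatives were DESeq2 1.42.0, limma 3.58.1 on log2(TPM + 1) where the mean TPM reached 1, other scalings and filters, a replicate block, a transcript length offset and each library left out. The SE of a fold change is its size over the square root of its F statistic. The fit shares information on variance over all genes, so this SE is not the spread of 1 gene's own libraries. Of the gene IDs in the tables, 55094 of 55487 matched GENCODE M21, the release used here for positions and sequences. Its transcripts gave the shared words and the 3′ UTRs.

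The members and the lists were chosen with earlier results of these data known. A fold change is given for Rab43 and Rab6b, called members, the 8 highest in mean TPM, the 4 with the largest difference in each direction (mean TPM at least 1, groups not overlapping in CPM) and the paralogs of Rab43 and Rab6b; in the lists, for called genes or the 2 highest in TPM. Mrpl48, Prelid1 and E230013L22Rik were named because they overlap a Rab gene, and Rab22a, shown without a fold change, after its values were seen.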

Additional observations from a re-analysis of the deposited data

How the results depend on the processing

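Over the alternatives the log2 fold change ran from 1.69 to 3.78 for Rab43, from 1.22 to 2.23 for Rab24 (called in 5 of 11) and from -2.09 to -1.11 for Rab6b (called in 7 of 12). All refit the libraries in which Rab43 and Rab6b had been noted, so these ranges are no independent support. Rab members called higher, 2 in the report, were 1 under library totals, 1 unfiltered and 1 where 2 libraries had to reach a CPM of 5. Members called lower, 1 in the report, were 0 with no filter, with the CPM minimum and in limma. Machinery genes called higher, 0 in the report, were 1 with library totals. Machinery genes called lower, 1 in the report, were 0 with DESeq2 size factors, library totals, no filter, the CPM minimum, DESeq2, the replicate block, the length offset and limma. With a library left out these counts moved too, as did the counts over all genes given below. Signs turned for Rab6a with DESeq2 size factors (-0.01), for Rab14 and Rab11a in limma (0.02 each) and for Rab19 with library totals (0.01). With a library left out, ranges crossed 0 for Rab6a (-0.32 to 0.30), Rab14 (-0.70 to 0.28), Rab11a (-0.62 to 0.15), Rab8b (-0.67 to 0.12), Rab30 (-0.17 to 0.44) and Rab19 (-2.02 to 0.38), and Rab1a ran from -0.53 to 0.00. With all libraries kept, 170 alternative values over the named Rab genes kept direction and side of the threshold, 4 reversed, 6 lost the call and 2 gained one. With a library left out, 10 more values reversed. The replicate block called 61 genes higher and 35 lower over the table, with the same 3 Rab genes; same-numbered libraries did not deviate together (correlation -0.122), and blocking on the crossed pairing, an alternative chosen after seeing the data, called 155 and 88. Over all genes, 139 were called higher and 71 lower, against 66 and 53 with DESeq2 size factors, 179 and 103 with library totals, 16 and 12 with no filter, 10 and 4 with the CPM minimum, 52 and 41 with DESeq2, 36 and 17 in limma, 606 and 290 without cKO 1 and 251 and 2016 without cKO 2. Where a library was left out, the lone library of its group was assumed to vary like the other group. The cause of these shifts was not tested. With 2 libraries a group and a biological coefficient of variation of 0.373, small differences in abundant Rabs were not detectable.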
